A study of Mus musculus with 2 samples.

Results

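Nuclear pore, exportin and importin genes were described in total RNA of mouse erythroblasts, red cell precursors that still hold a nucleus. The members were the protein-coding genes whose GENCODE symbol begins with Nup, Xpo or Ipo and a digit, or with Kpna, Kpnb or Tnpo, together with Cse1l, Tpr and Ran. This gave 46 of the 21546 nuclear protein-coding genes in the tables, namely 22 pore genes, 6 export genes, 17 import genes and Ran. They lay on 16 chromosomes, with 5 members each on chromosomes 2, 11 and 14. The mice were C57BL/6J males, adult and 5 to 6 weeks of age, and the erythroblasts were primary cells, with no transgene, deletion or treatment in the labels. The 2 libraries, each from 1 ng of RNA, are biological replicates 1 and 2 of 1 group, and there was no second condition to test. The labels list a biosample for each library and the same donor entry for both, which leaves the number of animals unstated, so the spread given here may be technical.

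The nuclear pore is a ring of nucleoporins through which all traffic between nucleus and cytoplasm passes. Importins (the Ipo, Kpna, Kpnb and Tnpo families) carry proteins in, exportins (Xpo genes and Cse1l) carry cargo out, and the small GTPase Ran sets the direction by its nucleotide state. Erythroblasts condense and then expel their nucleus, and exportin 7, encoded by Xpo7, is known for a role in chromatin condensation and enucleation of mouse erythroid cells.

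The libraries held 80806663 and 117032607 expected counts in replicates 1 and 2, of which nuclear protein-coding genes took 5.44% and 5.83%. The members held 59106 and 95426 counts, and 14881 and 22706 without Xpo7. Levels are given as rescaled TPM, the deposited TPM (transcript abundance, corrected for length) scaled so that nuclear protein-coding genes sum to 1000000 in each library. For a transcript with 1 kb of effective length, 3 counts equalled 0.891 rescaled TPM in replicate 1 and 0.555 in replicate 2, a limit that covers counting error only. Markers were checked against the label. All 14 erythroid markers were detected and summed to 455331 and 451524 rescaled TPM. All 10 neutrophil markers were also detected and summed to 43336 and 45787, all 8 monocyte and macrophage markers summed to 4537 and 4833, and the 4 megakaryocyte markers to 75.0 and 99.99. Of 4 T and NK markers 1, Nkg7, was detected, with 108 and 126 of the summed 109 and 126, and Cd3d and Cd8a were at 0. The part of these other cells in the levels given here was not tested, and in bulk RNA fewer cells of a type cannot be told apart from less RNA per cell.

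Nearly all of the transport genes were expressed. A rescaled TPM of 1 or more in both libraries, called detected here, was reached by 43 of 46 members, against 42.8% of all nuclear protein-coding genes. These were 20 of 22 pore genes, all 6 export genes, 16 of 17 import genes and Ran. A rescaled TPM of 10 or more in both was reached by 32 members, against a background of 23%. The median over all 46 members was 21.5 in replicate 1 and 20.6 in replicate 2, against 0.641 and 0.196 over all nuclear protein-coding genes. Members took 0.241% and 0.236% of the rescaled TPM. On the deposited TPM before rescaling, where most of the total is taken by other RNA, only 18 members reached a TPM of 1 in both libraries.

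The 3 members not detected were relatives of other members. Kpna7, an importin alpha of the oocyte and early embryo, had 0 counts in either library, for which 3 counts equal 0.741 and 0.467 rescaled TPM. Nup62cl, a relative of the channel nucleoporin Nup62, also had 0 counts in either, for which 3 counts equal 1.24 and 0.788. Nup210l, a relative of Nup210, had 1 count in replicate 1 and 18 in replicate 2, equal to 0 and 0.588 rescaled TPM.

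**Figure D1:**
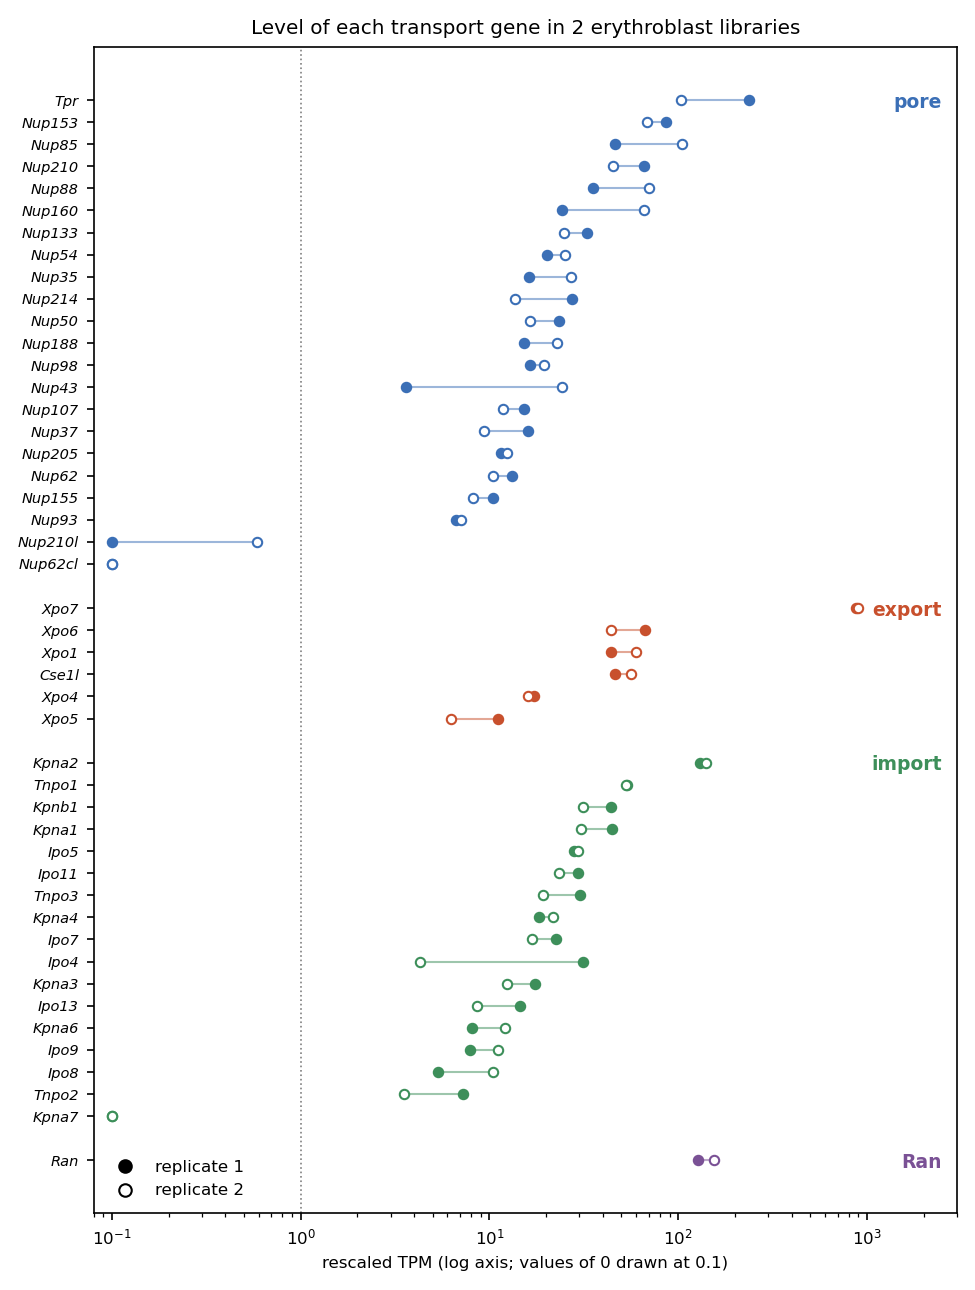
Rescaled TPM on a log axis for each of the 46 transport genes, ordered by mean within pore, export, import and Ran, with filled points for replicate 1, open points for replicate 2 and a dotted line at 1. Xpo7, at 877 and 898, lies to the right of every other gene, and Nup210l, Nup62cl and Kpna7 lie left of the line.

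Xpo7 was the highest of the 46 genes by a wide margin. Xpo7 (ENSMUSG00000022100; mm10 chromosome 14, 70654246 to 70766628, minus strand) had 44225 counts in replicate 1 and 72720 in replicate 2. Its level was 877 and 898 rescaled TPM, a mean of 888 ± 15.1 (SD, n = 2, as for all such values here). The next highest value of any member in either library was 236, for Tpr in replicate 1. Its rank among the 21546 nuclear protein-coding genes was 92 by mean level and 7 by counts, which carry no length correction.

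Xpo7 also took most of the export class. It held 82.5% and 83.1% of the rescaled TPM of the 6 export genes, and 95.9% and 96.0% of their counts. Of the rescaled TPM of all 46 members it held 36.4% and 38.1%, and of their counts 74.8% and 76.2%. The shares were alike in both libraries.

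The reads of Xpo7 were assigned almost wholly to 1 transcript. Xpo7-201, a protein-coding transcript, held 99.67% of the TPM of the gene in replicate 1 and 99.38% in replicate 2, from 44077 and 72267 counts. Xpo7-202, the other transcript in the tables, had 148.06 and 452.81 counts. Its length there was 15121 bases, nearly the same as that of Xpo7-201. How well reads can be split between models of such near lengths was not tested. The authors' tables give Xpo7-201 a length of 15118 bases, whereas GENCODE M21 on the same build gives it 4472 bases, a ratio of 3.38. With the shorter length the same counts give 3019 and 3092 rescaled TPM (3056 ± 51.4), against 874 and 893 (883 ± 13.2) as deposited, and Xpo7 would have rank 17 by level. Among the leading transcripts of the 43 detected members in replicate 1, Xpo7-201 alone had a length in the tables over 1.5 times that of M21. Lengths fell short of M21 for other leads, such as Xpo4-209 at 5199 against 8680 bases. The tables do not show where along the gene the reads lay, so the level of Xpo7 is uncertain between these values.

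GENCODE M21 lists 6 transcripts of Xpo7, of which the tables used here gave values for 2. Among the other 4 is Xpo7-206, a protein-coding transcript of 28 exons whose start, at position 70708035, lies inside the gene. Xpo7-201 and Xpo7-202 start at 70766554 and 70766628. Reads of Xpo7-206 could not be told apart from those of Xpo7-201 here. The gene Npm2 shares 39 exon bases with Xpo7 on the same strand and had 5 and 0 counts.

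The other exportins lay well under Xpo7, and by rescaled TPM of all transcripts most of them lay close together. Xpo1, or CRM1, which exports proteins with a leucine-rich signal, had 769 and 1615 counts and 43.8 and 59.6 rescaled TPM in replicates 1 and 2. Cse1l, which returns importin alpha to the cytoplasm, had 501 and 586 counts and 46.4 and 56.5 rescaled TPM. Xpo6, the exportin of actin, had 268 and 350 counts and 66.9 and 44.3 rescaled TPM. The ranges of these 3 genes overlap by rescaled TPM of all transcripts, so their order is not resolved in that unit. By counts, Xpo1 lay above Cse1l and Cse1l above Xpo6 in both libraries. Protein-coding transcripts gave the same order, with 43.2, 41.5 and 14.5 rescaled TPM in replicate 1 and 59.4, 25.9 and 6.47 in replicate 2. Xpo4, known for export of eIF5A, had 202 and 385 counts and 17.3 and 16.1 rescaled TPM. Xpo5, the exportin of microRNA precursors, was lowest with 133 and 120 counts and 11.1 and 6.27 rescaled TPM. By rescaled TPM of all transcripts, Xpo4 and Xpo5 lay below the other export genes in both libraries. By counts in replicate 2, and by protein-coding transcripts in replicate 2 (13.1 against 6.47), Xpo4 lay above Xpo6.

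Part of the level of Xpo6 and Cse1l came from transcripts that are not typed as protein coding. Xpo6 was led in both libraries by Xpo6-219, typed as a target of nonsense-mediated decay, with 30.88% and 28.12% of its TPM. Its protein-coding transcripts summed to 14.5 and 6.47 rescaled TPM. Cse1l was led by the protein-coding Cse1l-201 in replicate 1, at 89.24% of TPM. In replicate 2 it was led by the processed transcript Cse1l-209, which took 50.01% of TPM from 85 counts. Its protein-coding transcripts summed to 41.5 and 25.9 rescaled TPM. Xpo1 was led in both libraries by the protein-coding Xpo1-204, at 55.4% and 76.25%, with the protein-coding Xpo1-202 at 42.77% and 23.46%.

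Ran was among the highest members after Xpo7. It had 964.51 and 1863.65 counts and 128 and 154 rescaled TPM (141 ± 19.0) in replicates 1 and 2. Its lead, Ran-201, held 96.96% and 90.75% of its TPM. The pseudogene Gm13461 matches Ran at 97.3% over 662 bases and had 15.49 and 17.35 counts, so a small number of reads could have been split between them.

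Among import genes Kpna2 stood apart by rescaled TPM. Kpna2, an importin alpha, which binds the classical import signal, had 815.1 and 1389.88 counts and 131 and 141 rescaled TPM (136 ± 6.72). It held 59.7% and 64.7% of the rescaled TPM of the 6 Kpna genes, but 39.3% and 41.0% of their counts. Over protein-coding transcripts its share of the rescaled TPM was 56.3% and 55.1%. Its protein-coding transcripts summed to 90.2 and 88.4, and Kpna2-206, typed as a target of nonsense-mediated decay, held 31.35% and 37.26% of its TPM. The near-identical gene Gm10184, at 99.9% over 1968 bases, had 92.9 and 213.96 counts, so the split of reads between the pair is uncertain.

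The remaining leading import genes were general carriers. Tnpo1, transportin 1, which imports many RNA-binding proteins, had 1283 and 1934.82 counts and 53.7 and 52.9 rescaled TPM. Kpnb1, importin beta, the partner of every importin alpha, had 816 and 971 counts and 43.8 and 31.2 rescaled TPM. Kpna1 had 525 and 726 counts and 44.5 and 30.4 rescaled TPM. Tnpo1 lay above Kpnb1 and Kpna1 in both libraries, and the ranges of Kpnb1 and Kpna1 overlap. Kpna2 lay above all 3 in both libraries by rescaled TPM, but below Tnpo1 in both by counts.

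The other import genes formed a graded series. Ipo5, Ipo11, Tnpo3, Kpna4 and Ipo7 had means of 28.7, 26.4, 24.8, 20.1 and 19.8 rescaled TPM. Tnpo3 is known for import of splicing factors, and Ipo5 and Ipo7 for import of ribosomal proteins. Kpna3, Ipo13, Kpna6, Ipo9 and Ipo8 had means of 14.9, 11.6, 10.1, 9.54 and 7.87. The protein-coding transcripts of Ipo11 summed to only 4.06 and 8.63 rescaled TPM in replicates 1 and 2, and those of Ipo13 to 2.99 and 5.29. The place of these genes in the series thus depends on the transcripts counted. Tnpo2, a close relative of Tnpo1, had the lowest mean level of the detected import genes, with 117 and 90 counts and 7.27 and 3.53 rescaled TPM, although Ipo8 was lower in replicate 1. By family, the median over the 6 Kpna genes was 17.96 and 17.06, over the 7 Ipo genes 22.7 and 11.2, and over the 3 Tnpo genes 30.4 and 19.2. The range of the Ipo family spans that of Kpna and overlaps that of Tnpo, so by all transcripts the family order is not resolved. Over protein-coding transcripts the Tnpo median was 17.75 in replicate 1 and 19.4 in replicate 2, against 17.96 and 17.06 for Kpna. The Ipo median was then 4.28 and 8.63, below both other families in each library.

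Ipo4, known for import of histones, gave the least stable level. It had 104.14 counts in replicate 1 and 22.04 in replicate 2, and 31.2 and 4.31 rescaled TPM. Its leads, Ipo4-212 and Ipo4-208, are both processed transcripts, and its protein-coding transcripts summed to 0.641 and 0 rescaled TPM. GENCODE M21 assigns 1 transcript that the tables count under Ipo4 to another gene, Gm49378, which overlaps 55.3% of the exon bases of Ipo4 on the same strand. This transcript, Gm49378-201, typed as a target of nonsense-mediated decay, held 64.62 and 16.04 of the counts. Most of the counts given here for Ipo4 were thus assigned to a transcript outside its M21 gene. The 2 genes match at 100% over 2310 bases, and which of them these reads came from was not tested.

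The promoters of Ran and Kpna2 are shown because these were the 2 highest members, after Xpo7, whose leading transcript was protein coding in both libraries. Each is the RefSeq window on GRCm38.p6, from 250 bases before to 50 after the gene's start. Ran lies at chr5:129019906-129020205 on the plus strand and Kpna2 at chr11:106999476-106999775 on the minus strand. Capitals mark the nuclear respiratory factor 1 motif and CACGTG (an E-box) in Ran, at -205 and -118 from the start, and CCAAT in Kpna2, at -25 and 7. Xpo7 had no entry.
Ran: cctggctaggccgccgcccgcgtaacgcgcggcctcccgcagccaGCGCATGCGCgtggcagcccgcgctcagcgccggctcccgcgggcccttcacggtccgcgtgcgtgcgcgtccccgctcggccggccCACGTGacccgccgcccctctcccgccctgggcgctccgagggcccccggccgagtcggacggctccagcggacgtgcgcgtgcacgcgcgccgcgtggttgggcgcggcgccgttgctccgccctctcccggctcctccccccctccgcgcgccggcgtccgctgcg
Kpna2: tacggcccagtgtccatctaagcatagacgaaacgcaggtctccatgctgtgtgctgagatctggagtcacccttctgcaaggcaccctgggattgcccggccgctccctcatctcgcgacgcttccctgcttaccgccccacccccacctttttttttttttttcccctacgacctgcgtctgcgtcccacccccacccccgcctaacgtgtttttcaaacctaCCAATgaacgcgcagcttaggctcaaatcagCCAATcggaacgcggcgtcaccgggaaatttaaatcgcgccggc

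Windows were matched for 36 of 46 members and compared with 17492 windows of protein-coding genes, as a description with no test. The median GC content was 64.2% in members and 56.3% in all windows, and the median ratio of observed to expected CpG was 0.918 and 0.576. Both strands were searched for 6 motifs, and matches that overlap were each kept. CCAAT was found in 21 member windows (58.3%, against 39.0% of all windows), CACGTG in 7 (19.4%, against 7.90%) and the nuclear respiratory factor 1 motif in 6 (16.7%, against 6.60%). The ETS motif CCGGAAG was found in 6 (16.7%, against 11.9%), the GATA motif AGATAA in 2 (5.56%, against 9.96%) and TATAAA in 2 (5.56%, against 13.3%). A match is a string of letters in the window and was not tied to binding.

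The nuclear basket, the filaments that face the nucleoplasm, had the highest median of the pore groups with several genes, at 86.4 rescaled TPM in replicate 1 and 68.6 in replicate 2. Its summed level was 346 and 189, against 138 and 241 for the Y complex, so the order of the sums differed between the libraries. In replicate 2, Nup85 of the Y complex was the highest pore gene. Tpr, the basket's scaffold, had 1255 and 1212.8 counts and 236 and 104 rescaled TPM (170 ± 94.0) in replicates 1 and 2. Nup153, which anchors the basket, had 1173 and 1776 counts and 86.4 and 68.6 rescaled TPM. Nup50, a basket gene that also binds importin alpha, had 366 and 411 counts and 23.5 and 16.5 rescaled TPM. Tpr was lower in replicate 2 on both measures, with a log2 ratio of replicate 2 over replicate 1 of -0.69 by TMM-scaled counts (counts scaled for library size and composition) and -1.19 by level. Nup153 differed less, with -0.05 and -0.33.

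Short transcripts held much of the TPM of Tpr. The protein-coding transcript Tpr-202, of 575 bases, led in replicate 1 with 34.79% of TPM, and the retained-intron transcript Tpr-212 led in replicate 2 with 26.32%. The transcript Tpr-201, of 7480 bases, had 646.82 and 617.6 counts but only 11.06% and 15.04% of TPM. Protein-coding transcripts of Tpr summed to 153 and 26.5 rescaled TPM. The level of Tpr in these tables is therefore uncertain.

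Members of the Y complex, the outer ring scaffold, were more even once transcript types were separated. Nup85 had 140 and 319 counts and 46.2 and 105 rescaled TPM, and its protein-coding transcripts summed to 12.6 and 14.9. Nup160 had 191 and 392 counts and 24.2 and 65.7 rescaled TPM, of which protein-coding transcripts gave 8.34 and 10.4. In replicate 2, Nup160 was led by Nup160-204, a processed transcript of 229 bases that took 60.62% of TPM from 17.84 counts. Nup133, with a single transcript in the tables, had 626 and 761 counts and 32.7 and 24.9 rescaled TPM. Nup107 and Nup37 had means of 13.5 and 12.7 rescaled TPM. Nup43 had 14 and 149 counts and 3.63 and 24.3 rescaled TPM. Over the 6 Y complex genes that met the naming rule the median was 20.1 and 24.6, and over their protein-coding transcripts 13.9 and 13.3. All pore groups here hold only genes of that rule and so can be incomplete. Ranbp2 of the cytoplasmic filaments, for example, is not counted in its group.

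Nup210, an integral membrane nucleoporin, had 757 and 1222 counts and 66.3 and 45.1 rescaled TPM. It was thus in the upper part of the pore class in both libraries. Nup88, on the cytoplasmic face, had 160 and 436 counts and 35.3 and 69.99 rescaled TPM, led in both libraries by the retained-intron transcript Nup88-210 with 54.95% and 60.2% of TPM. Its partner Nup214 had a mean of 20.5 ± 9.65 rescaled TPM, and Nup98, a mobile nucleoporin, 17.9 ± 2.08.

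The inner ring, which lines the membrane side of the channel, had the lowest median level of the pore groups, apart from the Nup210l and Nup62cl relatives. The median over its 5 genes was 11.5 and 12.4 rescaled TPM in replicates 1 and 2. By counts its median was 177 and 180.71, against 145.5 and 253 for the Y complex and 123.475 and 215.49 for the central channel. It was thus not the lowest by counts in replicate 1. Nup35 and Nup188 had means of 21.7 ± 7.64 and 19.1 ± 5.49. Nup205 and Nup155 had means of 11.9 ± 0.570 and 9.36 ± 1.59. Nup93, the ring's linker, had the lowest mean level of the detected pore genes, with 60 and 102 counts and 6.63 and 7.06 rescaled TPM. Nup43 was lower in replicate 1, and Nup37 in replicate 2 by counts, with 57. In the central channel, Nup54 had a mean of 22.7 ± 3.38 and Nup62 of 11.8 ± 2.03, and both carry the repeats that form the transport barrier.

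Set side by side, the export class had the highest median level, and pore and import genes did not separate. The median over the 6 export genes was 45.1 and 50.4 rescaled TPM in replicates 1 and 2, over the 22 pore genes 16.4 and 21.2, and over the 17 import genes 22.7 and 16.9. On the log2 scale, with a pseudocount of 0.1, export exceeded import by 1.28 ± 0.41 (0.99 in replicate 1 and 1.56 in replicate 2) and exceeded pore by 1.35 ± 0.15 (1.46 and 1.24). Pore minus import was -0.07 ± 0.56, with -0.47 in replicate 1 and 0.32 in replicate 2, so its sign differed between the libraries. Both export differences were larger than their spread over the libraries, and with 1 group of 2 libraries no test was made. Without Xpo7 the export differences by all transcripts were 1.17 and 1.24. A median depends little on the size of its highest value, so these values do not weigh the part of Xpo7.

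The higher export median was reduced when transcripts not typed as protein coding were left out, an alternative chosen after seeing the data. The export median was then 28.0 and 19.5 rescaled TPM, the pore median 12.9 and 13.6, and the import median 17.5 and 12.4. Export minus import became 0.53 ± 0.06 and export minus pore 0.68 ± 0.34. Of the 5 export genes other than Xpo7, the median was 14.5 and 13.1, within the range of the import medians. By counts, which carry no length correction, export minus import was 0.81 and export minus pore 0.89. By summed level, export genes without Xpo7 gave 186 and 183 rescaled TPM, pore genes 723 and 691, and import genes 494 and 428.

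**Figure D2:**
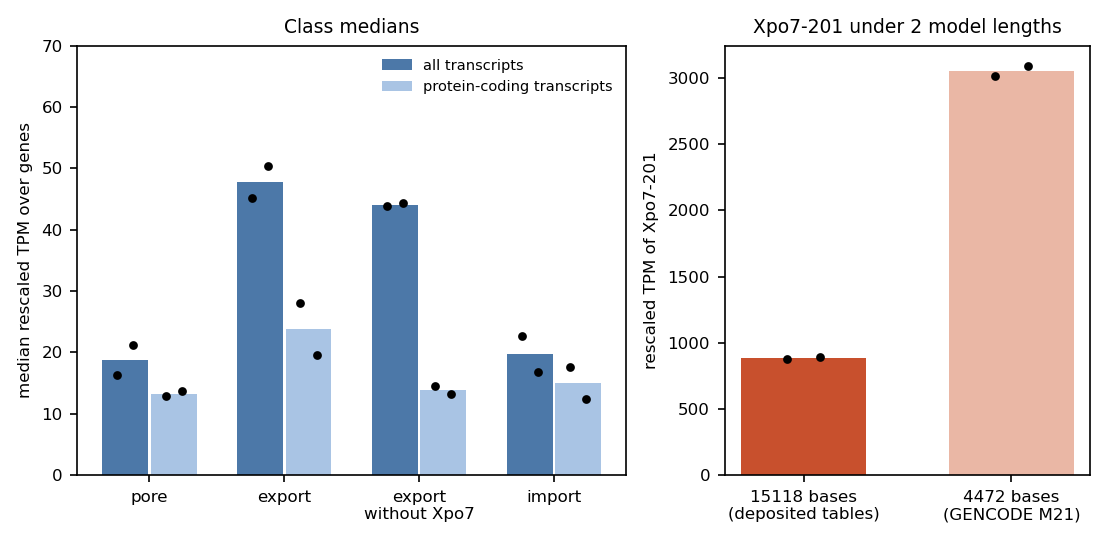
Left, median rescaled TPM over the genes of each class, from all transcripts (dark) and from protein-coding transcripts (light), with bars at the mean of 2 libraries and points for each library; right, rescaled TPM of Xpo7-201 with its length in the deposited tables and in GENCODE M21. The median of export without Xpo7 falls to 13.8 with protein-coding transcripts, beside 14.9 for import and 13.3 for pore, and Xpo7-201 stands at 883 or 3056 by length.

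Most members had the same leading transcript in both libraries. The leading transcript was the same in both libraries for 33 of the 43 detected members and typed as protein coding in both for 32. For 13 members a single transcript held all of the TPM in both libraries. Among them, Nup133, Nup50, Nup98, Nup155, Xpo5, Ipo5, Ipo7 and Kpna3 had only 1 transcript in the tables. For these genes neither the share nor the lead could have differed between the libraries. The lead differed between the libraries for 10 members, namely Tpr, Nup160, Nup188, Cse1l, Ipo4, Ipo11, Ipo13, Tnpo2, Tnpo3 and Kpna4. It was not protein coding in 1 or both libraries for 11, and in both for 5, which were Xpo6, Nup85, Nup88, Nup160 and Ipo4. The lead held under 60% of TPM in 1 or both libraries for 16.

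Protein-coding transcripts held 81.2% and 80.5% of the members' TPM in replicates 1 and 2, against 76.1% and 75.3% over all nuclear protein-coding genes. Without Xpo7 the members' share was 70.4% and 68.4%. It was 66.2% and 56.0% for pore genes, 65.3% and 60.8% for export genes without Xpo7, and 70.9% and 80.3% for import genes. By counts the share without Xpo7 was 91.2% and 90.5%, against 85.5% and 85.2% over all nuclear protein-coding genes. Transcripts of the other types thus held a smaller share of reads than of TPM.

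**Figure D3:**
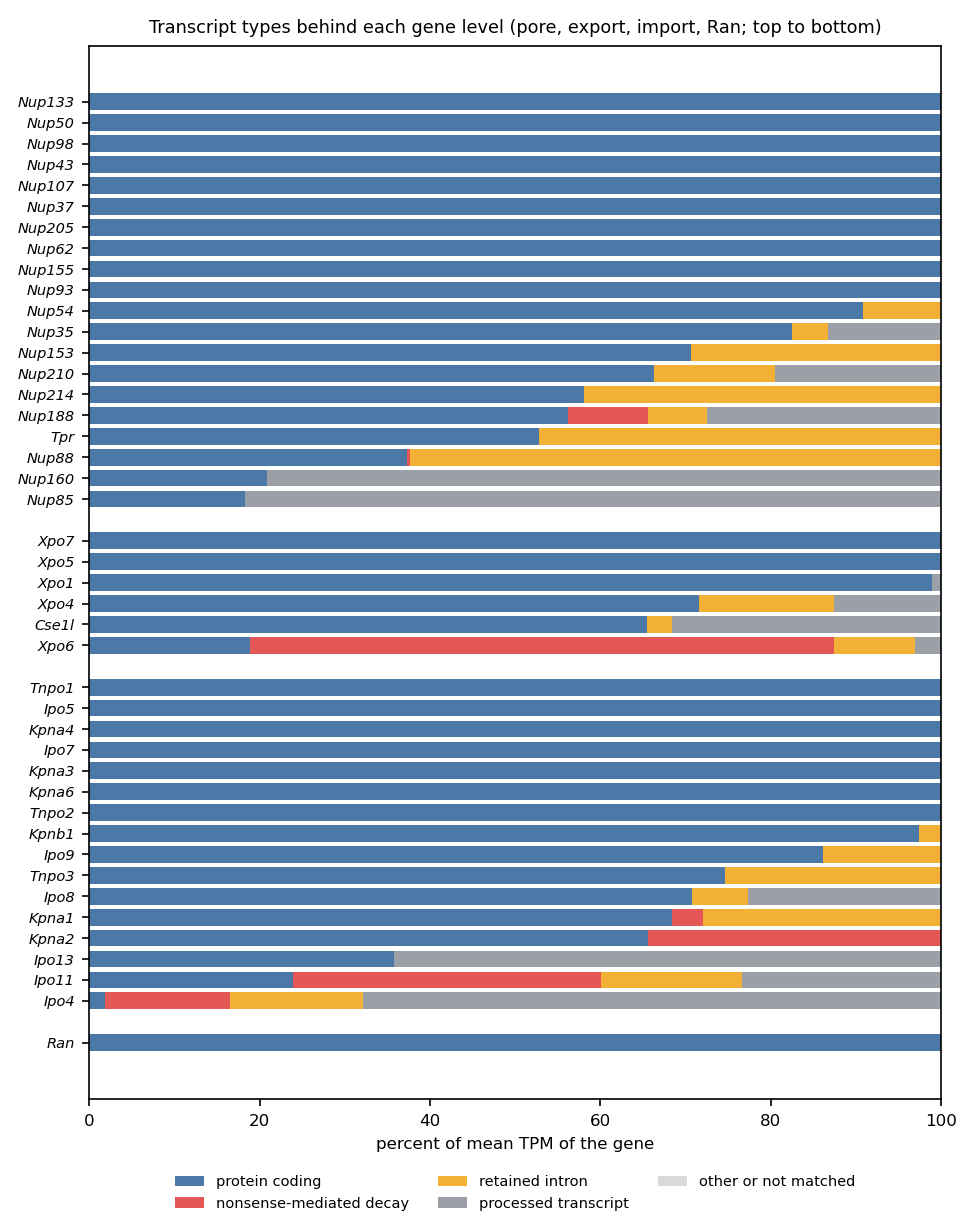
Percent of each detected gene's mean TPM that came from transcripts typed in GENCODE M21 as protein coding, nonsense-mediated decay, retained intron or processed transcript, with pore, export and import genes and Ran from top to bottom. Ipo4, Nup85, Xpo6 and Nup160 have the smallest protein-coding percents of their classes.

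The 2 libraries gave similar counts for most members. After TMM scaling, 43 members with a mean of at least 20 counts had a median log2 ratio of replicate 2 over replicate 1 of -0.05, with 21 higher in replicate 2, against 0.01 over 9225 nuclear protein-coding genes. Xpo7 had a log2 ratio of 0.07. The members over 2 times apart numbered 4, against a background of 19.8% of genes. They were Nup43 at 2.64, Ipo4 at -2.76, Nup188 at -1.11 and Tnpo2 at -1.01. Thus 1 member was higher in replicate 2, against 10.6% of genes, and 3 were higher in replicate 1, against 9.13%. With a mean of at least 100 counts, 2 of 38 members passed this size, against 396 of 5541 genes. By rescaled TPM in place of scaled counts, the genes over 2 times apart were partly others. Nup188 was then at 0.59, higher in replicate 2, and did not pass. Nup85 at 1.18, Nup160 at 1.44 and Tpr at -1.19 did.

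**Figure D4:**
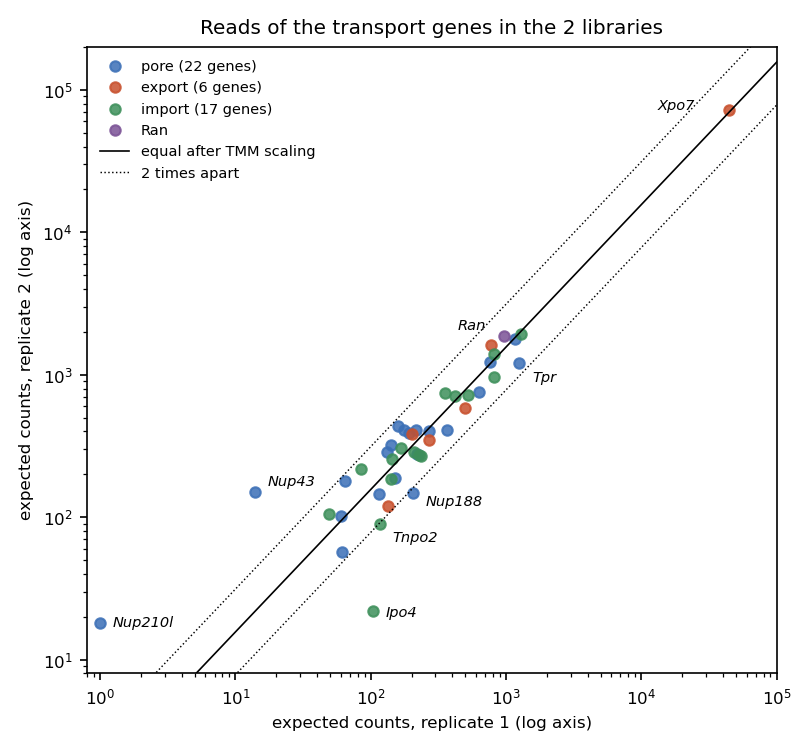
Expected counts of the transport genes in replicate 2 against replicate 1, both on log axes, with a solid line where TMM-scaled counts are equal and dotted lines 2 times apart; Kpna7 and Nup62cl, with 0 counts, are not drawn. Xpo7 lies near the line far above the rest, and Nup43 and Ipo4 lie farthest from it among genes with at least 20 counts on average.

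A list of 28 other genes of nuclear transport was matched in full, and 26 were detected. Their median was 14.3 and 16.96 rescaled TPM in replicates 1 and 2. The mRNA export receptor Nxf1 was highest by rescaled TPM of all transcripts, with 128 and 144. Ranbp2, the large nucleoporin of the cytoplasmic filaments, had 90.9 and 84.9, and Ranbp1, a Ran cofactor, 99.0 and 76.5, with ranges that overlap. Over protein-coding transcripts Nxf1, Ranbp2 and Ranbp1 had means of 91.6 ± 30.7, 87.9 ± 4.22 and 81.8 ± 24.2, so their order is not resolved. By counts Ranbp2 was highest, with 2856 and 4278, against 527 and 832 for Nxf1. The GTPase activator of Ran, Rangap1, had 18.2 and 8.43, and its exchange factor, Rcc1, 5.77 and 16.5. Ran lay above both of its regulators in each library. Ranbp17, the closest relative of Xpo7, had 0 counts in replicate 1 and 21 in replicate 2, equal to 0 and 7.25 rescaled TPM, and so was not detected in both. Of the pair, Xpo7 thus held nearly all of the counts in both libraries.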

How the data were processed

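Total RNA of 2 erythroblast libraries was analysed from the deposited gene and transcript tables. Per the deposited read-me, they were quantified from transcriptome alignments on mm10 with GENCODE M4. No source used here names the aligner or quantifier. The authors' tables hold expected counts (estimated reads per feature, shared out among the places they match), TPM scaled by the authors over all rows, deposited FPKM, a score that is the deposited posterior mean of TPM, and the percent of a gene's TPM held by each transcript, per the file headers. Of 43346 gene rows, 42462 were matched by identifier to GENCODE M21, which gave symbols, types and coordinates; 146 more were matched by transcript identifier, Nup62 among them.

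TPM was rescaled over nuclear protein-coding genes, and its rounding gives steps of 0.214 and 0.196. Class medians used log2 of rescaled TPM + 0.1. For edgeR 4.0.16 the expected counts were made whole by rounding, and TMM factors over 9966 genes were 0.962 and 1.04 (prior count 2). DESeq2 1.42.0 gave the alternative size factors of 0.800 and 1.25. The steps were tested on simulated data. Near-identical genes were searched with BLAST 2.17.0, at 95% identity over 200 bases or more. Whether both libraries hold the same data was checked by a chi-square of 556359 on 11353 degrees of freedom, which allows for counting noise only and says nothing of biological spread. Whole counts, within 0.005, held for all but 8 members. Whether counting used strand is not stated in these sources, so antisense neighbours could share reads.

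Counts and levels were named in full for Xpo7, Ran, Tpr, Cse1l and the 4 highest and 2 lowest genes of each class; others were named after their values were seen or as means. The members and lists were chosen with earlier results of these data known. With 1 group, no p-value was computed. Alternatives covered the unit, the rescaling, the pseudocount, filters and leaving out each library. The result of 1 marker list is not reported here.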

Additional observations from a re-analysis of the deposited data

How the results depend on the processing

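No paired analysis was possible because the series has only 1 group. Leaving out either library kept 43 detected members and gave 36 to 37 members at 10 or more. The class medians, as log2 of rescaled TPM, ranged from 4.04 to 4.41 for pore, 5.50 to 5.65 for export and 4.08 to 4.51 for import. Export minus import ranged from 0.99 to 1.56 and export minus pore from 1.24 to 1.46, while pore minus import ranged from -0.47 to 0.32 and so changed sign. Xpo7 ranged from 877 to 898, its share of export TPM from 82.5% to 83.1% and its leading transcript's share from 99.38% to 99.67%. With the posterior mean, pore minus import was 0.072, the export median 5.70, Xpo7 860, its export share 81.0% and its leading share 99.2%; the cause was not tested. Rescaled without the adult globin genes, which leaves a smaller total, Xpo7 was 1573 and the pore, export and import medians 5.05, 6.40 and 5.12. With detected members only, export minus pore was 1.19. On deposited TPM, 18 members were detected. The next 3 alternatives were chosen after seeing the data. With protein-coding transcripts only, the pore, export and import medians were 3.74, 4.42 and 3.89, export minus import was 0.53, export minus pore 0.68 and the share of Xpo7 88.4%. With counts in place of TPM, these differences were 0.81 and 0.89 and the share 96.0%. With the M21 length, Xpo7 was 3056 and its share 94.3%. With 2 libraries, leaving out 1 moves a mean by less than its SD whatever the data, so those ranges do not show stability. Of the other alternatives, 40 values kept their direction and moved by less than the spread between libraries or, for counts of genes, by at most 1.5 times, such as 6 members over 2 times apart by rescaled TPM, against 4 by scaled counts. The 6 left out Nup188 and added Nup85, Nup160 and Tpr. Levels of genes led by short transcripts can rest on few reads, as for Nup160-204 with 17.84 counts in replicate 2. Other short leads had more, such as Nup85-206 with 147.55 counts in replicate 2.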
